A study of Mus musculus with 30 samples.

Results

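The genes described here are 42 genes of stratified squamous epithelium, the layered lining of skin, mouth, oesophagus, forestomach and anal canal, among 46078 genes counted in mouse colon. They were taken by name from a list of basal and suprabasal keratins, desmosome genes and genes of the cornified envelope. The list was chosen with earlier results of these data known. All 42 were found in both the count table and the per-library abundance files. The study asked how sex, a high-fat diet and estradiol shape gene expression in the colon. RNA of frozen distal colon from C57BL/6J mice was depleted of ribosomal RNA and sequenced in 30 libraries, 1 per animal, in 5 groups of 6. The mice were 5 to 6 weeks old when a 13-week diet began. Control diet (CD, 10% of energy from fat) was fed to females and males given vehicle, and high-fat diet (HFD, 60% of energy from fat) to females and males given vehicle and to males given estradiol (HFD+E2, 0.5 mg/kg, 9 intraperitoneal injections in the last 3 weeks). The labels name no engineered allele, the females kept their ovaries, and their estrous cycle was not followed.

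Stratified squamous epithelium renews from a basal layer, whose cells carry the keratin pair Krt5 and Krt14 and the transcription factor Trp63. Cells that move upward switch keratins, to Krt4 and Krt13 in moist mucosa and to Krt1 and Krt10 in skin, and stay joined by desmosomes. The uppermost cells crosslink proteins such as involucrin (Ivl), loricrin (Lor) and the small proline-rich proteins (Sprr) under the membrane with transglutaminases. The colon itself is lined by a single layer of columnar cells with the simple keratins Krt8, Krt18, Krt19 and Krt20, and stratified epithelium meets it at the anal canal.

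Every library carried colon markers. Total counts ranged from 8667177 to 17243712 with a median of 11530915.5, and mitochondrial genes took 26.1% to 37.99% of them. The summed level of a list of columnar colon genes was 5755 to 9056 TPM (a transcript level scaled for gene length and library size), and the hindgut position gene Hoxb13 was at 91.96 TPM or more throughout. Cdx1, an intestinal homeobox gene, lay between 33.9 and 62.6 TPM, whereas its relative Cdx2 reached only 1.09 TPM. In bulk tissue, fewer cells of a type and less RNA per cell cannot be told apart.

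The promoters of 1 member from each of 4 layers are shown because these genes were highest in the same 6 libraries in the results that follow. They are the 250 bases before the RefSeq start on the minus strand of GRCm38.p6, written 5′ to 3′ along the gene: Krt5 at chr15:101712906-101713155, Krt13 at chr11:100121567-100121816, Krt10 at chr11:99389365-99389614 and Ivl at chr3:92573736-92573985. Capitals mark the AP-1 letters TGANTCA, which read as the same motif on both strands, and the TATA letters TATAAA.
Krt5: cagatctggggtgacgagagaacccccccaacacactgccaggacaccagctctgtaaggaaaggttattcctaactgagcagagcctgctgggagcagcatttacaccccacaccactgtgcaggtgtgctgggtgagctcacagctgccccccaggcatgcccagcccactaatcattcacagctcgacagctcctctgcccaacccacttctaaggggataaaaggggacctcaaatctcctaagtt
Krt13: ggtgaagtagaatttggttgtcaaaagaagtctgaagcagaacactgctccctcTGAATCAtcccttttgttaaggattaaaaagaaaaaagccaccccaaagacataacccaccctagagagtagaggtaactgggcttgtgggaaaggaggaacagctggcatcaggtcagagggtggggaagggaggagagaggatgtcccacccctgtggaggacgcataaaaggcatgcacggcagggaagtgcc
Krt10: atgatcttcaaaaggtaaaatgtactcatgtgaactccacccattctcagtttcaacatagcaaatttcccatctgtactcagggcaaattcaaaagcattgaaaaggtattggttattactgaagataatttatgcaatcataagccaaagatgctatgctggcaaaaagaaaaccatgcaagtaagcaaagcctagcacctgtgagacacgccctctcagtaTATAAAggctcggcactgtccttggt
Ivl: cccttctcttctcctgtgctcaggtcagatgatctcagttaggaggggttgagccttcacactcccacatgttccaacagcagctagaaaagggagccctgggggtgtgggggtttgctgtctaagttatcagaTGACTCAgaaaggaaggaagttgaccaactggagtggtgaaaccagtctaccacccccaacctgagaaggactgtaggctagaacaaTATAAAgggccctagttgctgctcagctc
Of the 42 members, 25 had an entry in the promoter table, which covers 27025 genes. The letters TGANTCA stood in 9 of these 25 genes (36%) and in 7.82% of all genes, on either strand. The 9 were Dmkn, Ivl, Krt13, Krtdap, Lor, Sbsn, Serpinb5, Sprr1a and Sprr1b. In Krt13 the match began 196 bases before the start and in Ivl 116 bases before it. TATAAA stood in 9 of 25 genes (36%) against 14.3% of all genes, beginning 26 bases before the start in Krt10 and 29 in Ivl. GGGNGGGG, the letters of KLF and SP factors, stood in 11 of 25 (44%) against 33.3%, and the core of the p53-family motif in 0 of 25 against 0.570%. None of these letters stood in the Krt5 window. In the printed sequences the capitals of different motifs do not overlap, and these shares describe letters and not binding.

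Most members were close to absent from most colons and high in a few. The median over all 30 libraries was under 1 TPM for 31 of 42 members, and 25 members had 0 counts in at least 1 library. Krt5, the basal keratin, gave 1378, 0, 1882, 1227, 277 and 0 counts in HFD females 1 to 6 and 0, 297, 1, 90, 2 and 0 in HFD males 1 to 6. In the other 3 groups Krt5 ran from 0 to 2 counts in CD females (median 0), from 1 to 26 in CD males (median 4) and from 0 to 4 in HFD+E2 males (median 2). So 6 libraries, HFD females 1, 3, 4 and 5 and HFD males 2 and 4, held 90 or more Krt5 counts and the other 24 held 26 or fewer. They are called the 6 Krt5 libraries here, a description set by the level of 1 member, and no test was made between them and the rest. The mean Krt5 level was 43.0 ± 43.7 TPM in HFD females, 4.13 ± 7.70 in HFD males, 0.262 ± 0.361 in CD males, 0.0157 ± 0.0384 in CD females and 0.0376 ± 0.0582 in HFD+E2 males (SD, n = 6 each).

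**Figure D1:**
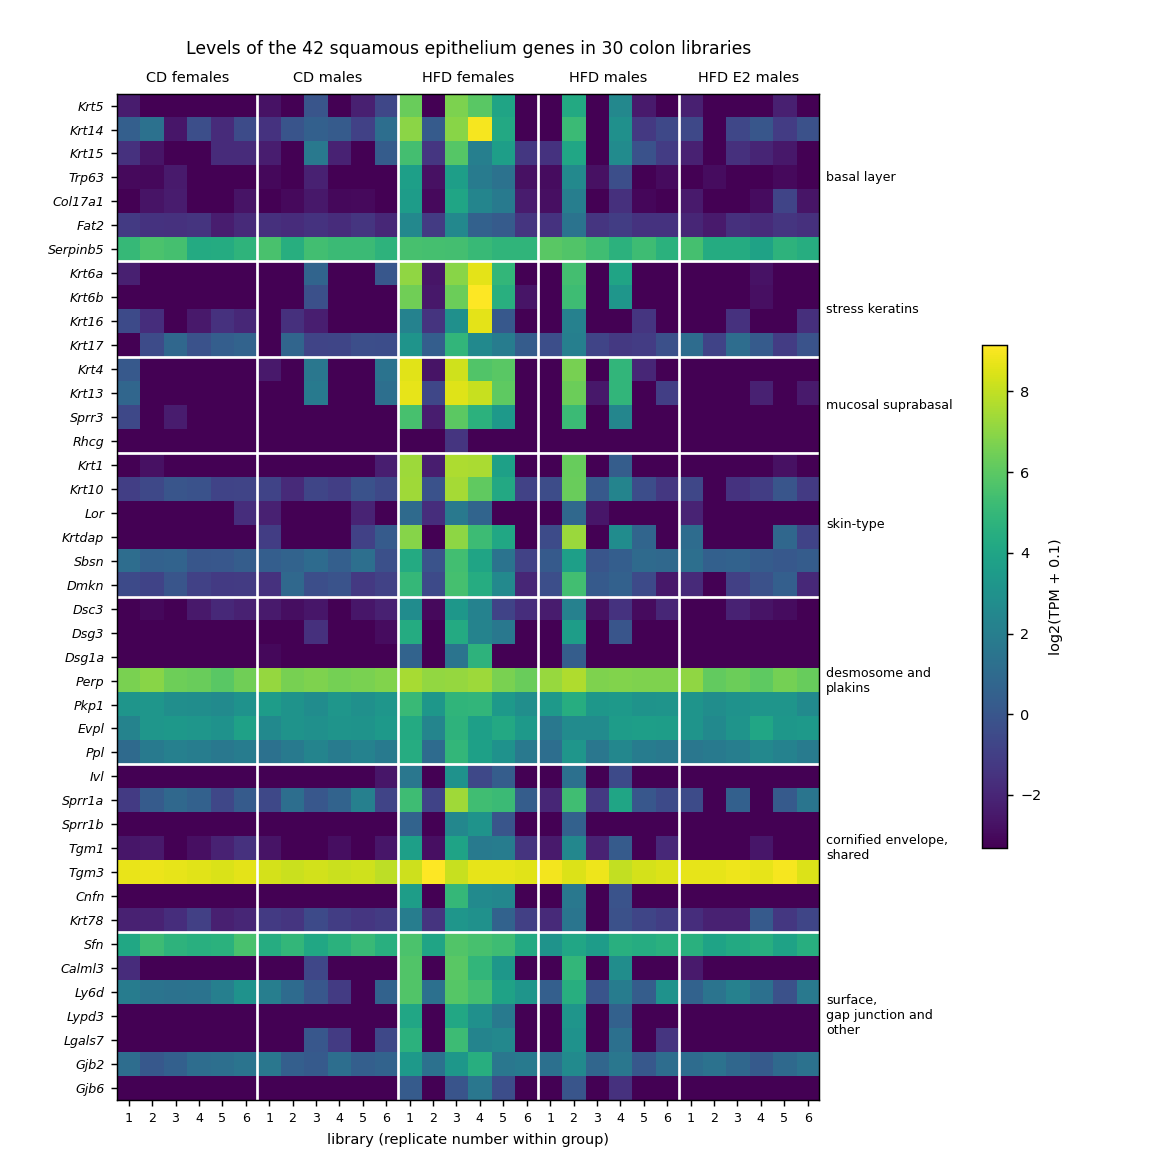
Level of each of the 42 members (rows, by role) in each of the 30 libraries (columns, by group), as colour on a log2(TPM + 0.1) scale. HFD females 1, 3, 4 and 5 and HFD males 2 and 4 stand out as columns across most rows, while Tgm3, Perp and Serpinb5 are high throughout.

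The other members followed the same 6 libraries to differing degrees. For 25 of the 42 members, Krt5 included, each of the 6 libraries was above each of the other 24 in CPM (counts scaled to library size). For 9 more members 5 of these 6 were among the top 6, for 4 members 4 were, and for Serpinb5, Rhcg, Evpl and Tgm3 3 or fewer were. The libraries were set by the level of Krt5, itself a member. The share of all genes that separate them in this way was not counted, so these counts have no baseline and are descriptions. At the other end, 7 members were at 1 TPM or more in every library. These were Serpinb5, a serpin also known as maspin, Perp, Pkp1, Evpl and Ppl of the desmosome and its plakins, the 14-3-3 protein Sfn, and the transglutaminase Tgm3. The simple keratins that share chromosomal clusters with the members moved little: Krt8 spanned 877 to 1616 TPM over the 30 libraries and 1007 to 1194 TPM in the 6, and Krt18, Krt19 and Krt20 varied by at most 2.52-fold. Krt8 and 6 type II members lie near each other on chromosome 15, with the members spanning 278 kb, and 6 type I members span 876 kb on chromosome 11.

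In the basal layer, Krt14, the partner of Krt5, stood at 124, 121, 504 and 18.5 TPM in HFD females 1, 3, 4 and 5 and at 35.7 and 7.57 TPM in HFD males 2 and 4, against at most 2.43 TPM elsewhere. Krt15, a keratin of resting basal cells, stood at 42.5, 57.1, 4.12, 12.5, 16.3 and 6.41 TPM in the same order of libraries, against at most 3.18 TPM elsewhere. Trp63 stood at 13.0, 12.7, 3.57, 2.52, 5.70 and 0.693 TPM in that order, against at most 0.123 TPM elsewhere. For all 3 genes the 6 libraries did not overlap the other 24, but HFD female 4 was highest for Krt14 and lowest for Krt15. The hemidesmosome collagen Col17a1 reached 16.2 TPM and the cadherin Fat2 5.49 TPM, both in HFD female 3. Serpinb5 was broadly expressed, at 26.0 to 53.6 TPM in the 6 and 14.4 to 62.6 TPM in the rest, so the ranges overlapped. Elsewhere the deepest trace was in CD male 3, with 26 Krt5 and 34 Krt15 counts.

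The mucosal keratins Krt13 and Krt4 had the highest levels of the 42 members in HFD females 1 and 3. Krt13 stood at 417, 369, 273 and 66.6 TPM in HFD females 1, 3, 4 and 5 and at 81.9 and 29.5 TPM in HFD males 2 and 4, against at most 3.32 TPM elsewhere. Krt4, its type II partner, stood at 379, 304, 54.1, 61.8, 97.3 and 29.9 TPM in that order, against at most 2.98 TPM elsewhere. Sprr3, an envelope precursor of moist mucosa, stood at 45.6, 64.6, 25.8, 10.2, 36.3 and 5.10 TPM, against at most 0.555 TPM elsewhere. All 3 separated the 6 libraries from the 24 without overlap. The ammonium transporter Rhcg, which marks oesophageal mucosa, was at 0 TPM in every library but HFD female 3, where it reached 0.282 TPM. Small amounts of the same keratins were counted in CD male 3 (70 Krt4 and 58 Krt13 counts), CD male 6 (43 and 22) and CD female 1 (16 and 19).

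The skin-type members were present in the same libraries. Krt1 stood at 160.4, 195, 192 and 13.5 TPM in HFD females 1, 3, 4 and 5 and at 74.9 and 1.18 TPM in HFD males 2 and 4, against at most 0.108 TPM elsewhere. Krt10, its type I partner, stood at 165, 174, 69.6, 18.5, 79.5 and 4.79 TPM in that order, against at most 1.03 TPM elsewhere. Krtdap, a secreted differentiation protein of suprabasal keratinocytes, stood at 119, 131, 36.7, 16.8, 155 and 6.68 TPM, against at most 1.998 TPM elsewhere. None of these 3 genes overlapped between the 6 libraries and the 24, and HFD male 2 was highest for Krtdap. Loricrin, the main envelope protein of skin, was low: 1.89, 3.21, 1.52, 0, 1.77 and 0 TPM in the 6 and at most 0.213 TPM elsewhere. Sbsn and Dmkn, whose genes lie within 56.4 kb of Krtdap on chromosome 7, reached 41.3 and 44.8 TPM, both in HFD female 3. Sbsn was expressed in every library (0.456 TPM at least), and 13.2% of its 51-base stretches also occur in other genes.

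**Figure D2:**
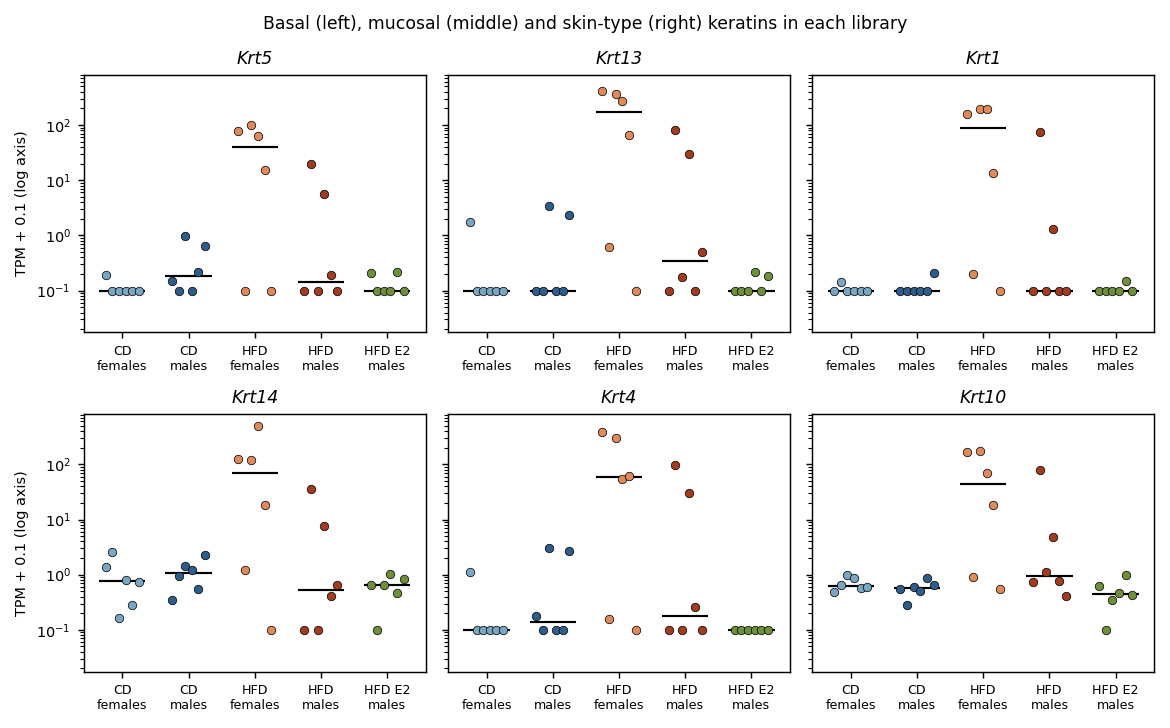
Levels of 3 keratin pairs in the 5 groups: Krt5 and Krt14 (basal), Krt13 and Krt4 (mucosal), Krt1 and Krt10 (skin-type). Each dot is a library on a logarithmic axis of TPM + 0.1 and the black bar is the group median; HFD females 1, 3, 4 and 5 and HFD males 2 and 4 lie above the rest for each of the 6 genes.

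The stress keratins, which stratified epithelia raise on wounding and which the tongue and hair follicle carry at rest, set HFD female 4 apart. Krt6a stood at 133, 121, 395 and 30.2 TPM in HFD females 1, 3, 4 and 5 and at 42.2 and 15.4 TPM in HFD males 2 and 4. Krt6b stood at 86.9, 82.2, 567, 23.2, 38.2 and 9.42 TPM in that order. Krt16, their type I partner, gave 5099 counts (397 TPM) in HFD female 4 and at most 41 counts in any other HFD female. Krt17 did not follow it: HFD female 3 was highest at 29.6 TPM, and HFD female 4 stood at 6.03 TPM. Krt6a and Krt6b were at most 1.51 and 0.714 TPM in the other 24 libraries. Their separate levels are uncertain, since 49.2% of the 51-base stretches of Krt6a and 49.7% of those of Krt6b occur in other genes, mostly in each other, and so do 37.0% of those of Krt16 and 13.8% of those of Krt14.

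Among the desmosome members, the cadherins Dsg3 and Dsc3 separated the 6 libraries from the other 24. Dsg3 ranged from 0.874 to 20.5 TPM in the 6 libraries and reached 0.230 TPM in the rest, and Dsc3 ranged from 0.259 to 9.75 TPM and reached 0.207 TPM. Dsg1a, a cadherin of upper layers, stood at 1.48, 2.69, 26.7, 0, 1.17 and 0 TPM in HFD females 1, 3, 4 and 5 and HFD males 2 and 4, again with HFD female 4 far above the others. It shares 34.7% of its 51-base stretches with other genes, 31.3% with Dsg1b. The tetraspan protein Perp spanned 99.4 to 203 TPM in the 6 and 62.4 to 151 TPM in the rest. The plakophilin Pkp1 and the plakins Evpl and Ppl were expressed throughout and overlapped between the 6 and the 24, with highest levels of 35.2, 27.0 and 30.1 TPM in the 6.

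Of the envelope members, involucrin stood at 2.94, 8.11, 0.550, 1.19, 2.33 and 0.605 TPM in HFD females 1, 3, 4 and 5 and HFD males 2 and 4, and 22 of the other 24 libraries had no count. Sprr1a ranged from 15.7 to 165 TPM in the 6 and up to 4.21 TPM elsewhere, Sprr1b reached 8.46 TPM and Cnfn 31.1 TPM with 0 counts of either in the 24. Tgm1, the membrane-bound transglutaminase of keratinocytes, ranged from 1.12 to 15.1 TPM in the 6 and up to 0.267 TPM elsewhere, and the keratin Krt78 reached 9.30 TPM. Tgm3 was the exception: it was at 243 to 558 TPM in every library and made up most of this group's summed level. Of the surface, gap junction and other members, Calml3, Lypd3, Lgals7 and Gjb6 separated the 6 libraries from the rest, with highest levels of 62.9, 17.9, 36.8 and 2.93 TPM. Ly6d, Gjb2 and Sfn were expressed more widely, with at most 9.03, 3.27 and 46.6 TPM in the 24 and 58.1, 22.7 and 54.7 TPM in the 6.

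The balance of basal against suprabasal keratins differed between the 6 libraries, and HFD female 4 aside it differed more for the skin-type than for the mucosal pair. The summed level of Krt4 and Krt13 over that of Krt5 and Krt14 was 3.94, 3.02, 0.576 and 3.80 in HFD females 1, 3, 4 and 5 and 4.55 in HFD male 4, with 3.27 in HFD male 2. The summed level of Krt1 and Krt10 over that of Krt5 and Krt14 was 1.61, 1.65, 0.461, 0.947, 2.81 and 0.458 in the order HFD females 1, 3, 4 and 5 and HFD males 2 and 4. In each of the 6 libraries the mucosal pair exceeded the skin-type pair, by a skin-to-mucosal ratio of 0.409, 0.547, 0.801, 0.249, 0.862 and 0.101 in that order. HFD female 4 was the one library with less mucosal than basal keratin, and HFD males 2 and 4 had the highest and the lowest skin-to-mucosal ratio.

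Single ratios of levels to Krt5 showed which members kept step. Krt13 over Krt5 lay between 3.62 and 5.39 in the 6 libraries, a 1.49-fold range and the narrowest of the 41 members. Krt1 over Krt5 lay between 0.216 and 3.91, an 18.1-fold range. Krt14 over Krt5 was 8.005 in HFD female 4 and 1.19 to 1.86 in the other 5, while Krt15 over Krt5 was 0.0654 there and 0.544 to 1.17 in the other 5. Krt13 over Krt4 was 5.04 in HFD female 4 and 0.842 to 1.21 elsewhere, and Krt16 over Krt6a was 1.006 against at most 0.102. Leaving HFD female 4 out, the SD of the log2 ratio to Krt5 went from 1.05 to 0.27 for Krt14, from 1.5 to 0.46 for Krt15 and from 1.01 to 0.35 for Krt4, but stayed at 1.53 and 1.60 for Krt1.

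Correlations were computed within the 6 Krt5 libraries only, since the 30 libraries fall into separate clusters and a pooled value would measure that gap. On log2 CPM, Krt13 followed Krt5 most closely (Pearson r = 0.991, exact permutation p = 0.00139, adjusted 0.00949; Spearman rho = 1, exact permutation p = 0.00278, adjusted 0.0190). Each r was also taken without the 2 libraries farthest from the median of Krt5. Of 41 members compared with Krt5, 17 passed an adjusted exact permutation p of 0.05 by Pearson r. The share of all genes that would pass was not counted, so this count has no baseline and is a description. Among those that also passed by Spearman rho, r without the 2 farthest libraries ran from 0.53 for Trp63 to 0.997 for Krt13, with 0.71 for Krt10, 0.84 for Krt1 and 0.99 for Ly6d. Krt15 did not pass (r = 0.57, rho = 0.66, exact permutation p = 0.24 and 0.175, adjusted 0.27 and 0.22), and r was -0.05 without the 2 farthest libraries. Ivl did not pass (r = 0.60, rho = 0.66, exact permutation p = 0.21 and 0.175, adjusted 0.25 and 0.22), and its r was -0.23 without the 2 farthest libraries. The correlation of Tgm3 did not pass either (r = 0.02, rho = -0.03, exact permutation p = 0.96 and 1, adjusted 0.96 and 1; r = -0.46 without the 2 farthest libraries). The 6 points come from 2 groups, 4 HFD females and 2 HFD males.

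Other genes of stratified epithelium were present in the same libraries where they belong to the upper layers. Their lists, like the members, were chosen with earlier results of these data known. Filaggrin (Flg), the filament-aggregating protein of skin, stood at 24.9, 75.6, 13.8, 2.81, 21.97 and 0.978 TPM in HFD females 1, 3, 4 and 5 and HFD males 2 and 4, and at most at 0.0635 TPM elsewhere. The 16 late cornification genes summed to 47.2 to 286 TPM in the 6 and 15.0 to 37.5 TPM in the rest, where Casp14 (10.6 to 33.3 TPM) and Scel (2.89 to 8.48 TPM) made up most of it. The 5 barrier lipid genes summed to at most 34.8 TPM in the 6 and 1.005 TPM in the rest. Krt76, a palate keratin, and the cadherin Dsc1 were again highest in HFD female 4, at 9.33 and 35.9 TPM, while Krt2, a keratin of upper epidermis, was at most 0.0482 TPM anywhere. The factors Grhl1 (1.002 to 9.81 TPM in the 6, up to 0.778 TPM elsewhere) and Grhl3 (0.792 to 6.78 TPM, up to 0.615 TPM elsewhere) were highest there, whereas Klf4, Klf5 and Ovol1 overlapped between the 6 and the 24. The genes most like Krt5 in rank over the 30 libraries (Spearman rho 0.739 to 0.793, a description that the 6 libraries set) were Adam28, Tmprss11b, Psca, Tnnc2, Tmprss11g, Flg, Gm94, Eya1, Gsta4 and Alox12b.

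Tnnc2, a troponin of fast skeletal muscle, belongs to another tissue, and the marker lists of 3 neighbouring tissues were high in 3 of the 6 libraries. The 11 skeletal muscle genes summed to 248, 286, 23.6, 73.9, 581 and 129 TPM in HFD females 1, 3, 4 and 5 and HFD males 2 and 4 and to 9.72 to 140 TPM in the other 24, with 140 TPM in CD male 5. Hair follicle genes summed to 15.3, 39.8, 0.712, 0.222, 5.54 and 0.866 TPM in that order and to at most 3.09 TPM elsewhere. Sebaceous gland genes summed to 22.4, 23.0, 1.87, 2.15, 40.3 and 1.05 TPM in that order and to at most 2.62 TPM elsewhere. HFD females 1 and 3 and HFD male 2 lay above the other 24 libraries on all 3 sums. HFD females 4 and 5 and HFD male 4 lay inside their range on all 3 sums. By single muscle gene, Mb stood at 1.21, 5.65 and 6.27 TPM in those libraries, against at most 1.18 TPM in the 24. Myh2 stood at 1.12, 3.13 and 3.91 TPM, against at most 2.80 TPM. In HFD male 4, Myh1 (8.77 TPM), Acta1 (12.6) and Tnnc2 (16.2) were also above the 24 (at most 3.11, 11.0 and 15.6 TPM). Ckm, Myh4, Mylpf, Tnnt3, Tnni2 and Actn3 lay inside their range. The hair keratins Krt25, Krt27, Krt71, Krt31 and Krt33b were at 0 TPM in HFD female 4, HFD female 5 and HFD male 4. The columnar colon sum overlapped, at 5755 to 7833 TPM in the 6 and 6600 to 9056 TPM in the rest. The part of skin or anal canal tissue in these results was not tested.

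**Figure D3:**
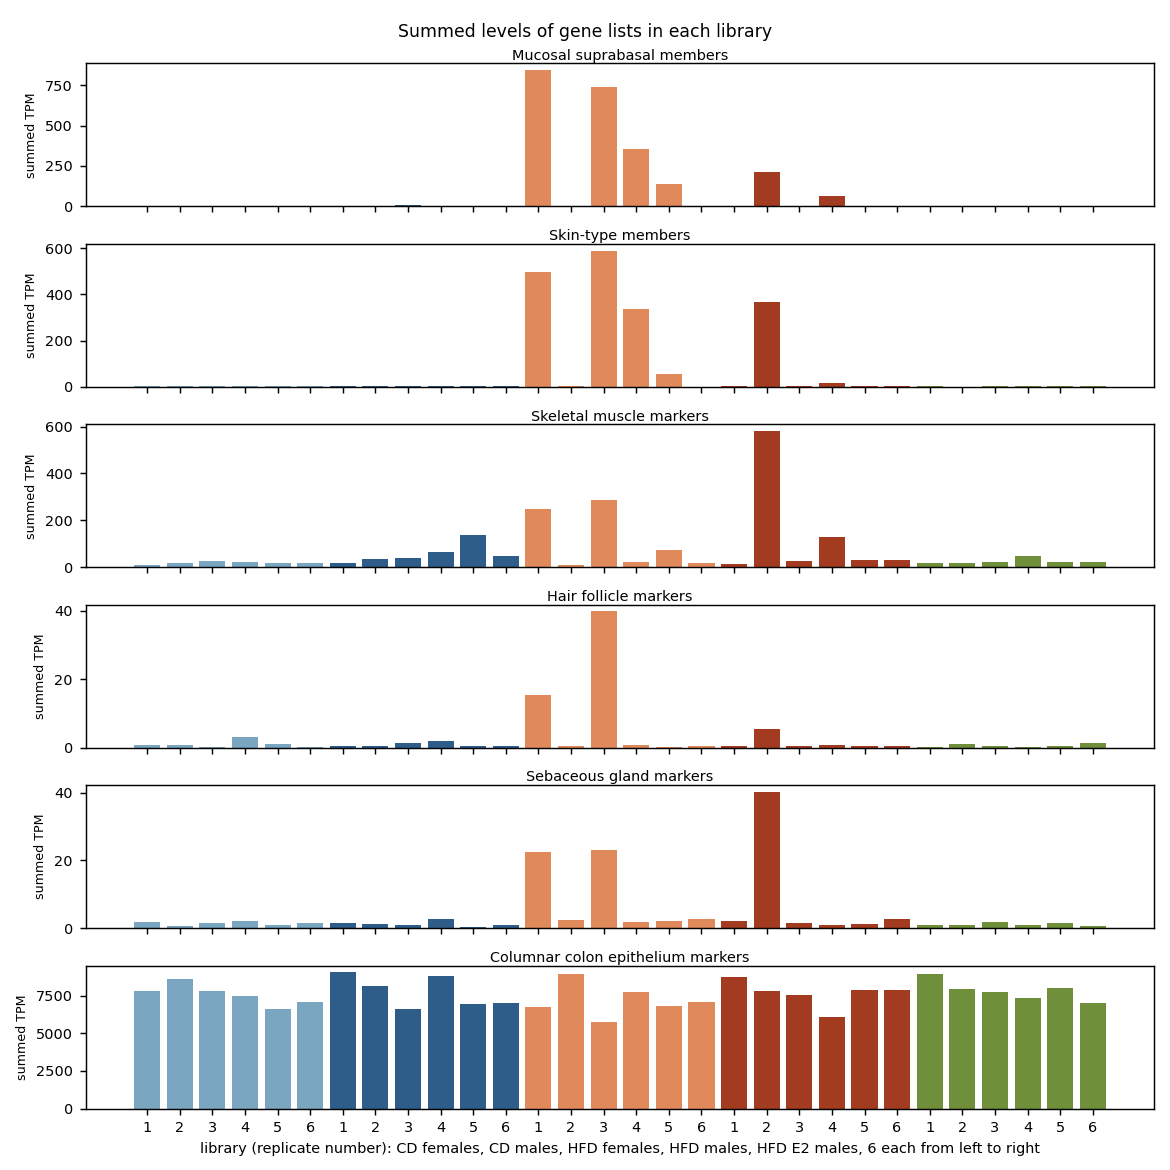
Summed TPM of 6 gene lists in each of the 30 libraries, bars on separate linear axes that start at 0: mucosal suprabasal, skin-type, skeletal muscle, hair follicle, sebaceous gland and columnar colon epithelium. HFD female 4 has a high mucosal and skin-type sum with a skeletal muscle sum of 23.6 TPM, and HFD male 2 the highest skeletal muscle sum, 581 TPM.

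Group comparisons were made over animals with edgeR's quasi-likelihood test on counts, and 2 rules were used for a call: an unadjusted p under 0.05 together with an absolute log2 fold change above 0.4, and a Benjamini-Hochberg adjusted p under 0.05 over all genes. A gene entered only with about 10 counts in at least 6 of the 12 libraries. A member that is high in a few libraries of one group could pass this only through that group, so the counts of members called are read as descriptions. Where a library was left out, the filter was applied anew. The members tested could then change, so those counts and medians are not of a fixed set. Krt5, Krt13, Krt4 and Krt1, with 4 positive libraries of 6, entered only 1 of the 5 group comparisons, that of HFD females with HFD males.

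HFD females against CD females gave the most calls. Of 16 members tested, 12 were called higher and 0 lower at the unadjusted p, against 2.95% and 0.724% of 15061 genes, and the median log2 fold change of the 16 was 2.38. No member passed the adjusted p (0.0199% of genes did), and 12 members were under an unadjusted p of 0.05, while DESeq2, which tested more members, called 28 by adjusted p (0.766% of genes). Krt10 differed by 6.495 ± 1.42 (log2 fold change ± SE, adjusted p = 0.412), from 10 to 17 counts in CD females to 2839, 15, 3125, 1392, 325 and 10 counts in HFD females 1 to 6. HFD females 1, 3, 4 and 5 lay far above every CD female, and HFD females 2 and 6 lay inside the CD range. Dsc3 differed by 4.98 ± 1.15 and Ly6d, a surface protein of stratified cells, by 2.82 ± 0.67, both with an adjusted p of 0.412. The other 9 called were Krt14 (6.99 ± 1.63), Dmkn (3.88 ± 0.93), Fat2 (3.07 ± 0.73), Sbsn (3.004 ± 0.86), Krt17 (2.74 ± 0.78, and 1.64 without HFD female 3), Gjb2 (2.03 ± 0.56), Ppl (1.80 ± 0.57), Pkp1 (1.29 ± 0.35) and Perp (0.50 ± 0.14). Tgm3 differed by -0.11 ± 0.15. The count was 19 without CD female 2, 4 or 5 and 20 without HFD female 2. These counts exceed 16 because the filter, applied anew, let in more members.

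HFD males against CD males had 4 of 14 members called higher and 0 lower, against 1.25% and 1.64% of 14991 genes. The median log2 fold change of the 14 was 0.47, and 0.17 without HFD male 2, 0.71 without CD male 4, 0.74 without CD male 6, 0.73 without HFD male 3 and 0.77 without HFD male 5. No member and 0% of genes passed the adjusted p by edgeR, with 5 members under an unadjusted p of 0.05, and DESeq2 called 1, Sprr3 (0.0938% of genes). Sprr3 had 0 counts in all 6 CD males and in 4 HFD males, so this call came from HFD males 2 and 4. Krt10 differed by 4.67 ± 1.51 (edgeR adjusted p = 0.716), from 5 to 13 counts in CD males to 14, 1181, 17, 79, 19 and 7 counts in HFD males 1 to 6. HFD males 2 and 4 stood far above every CD male, and the other 4, at 7 to 19 counts, lay near the CD males. Sbsn (1.18 ± 0.45), Fat2 (1.39 ± 0.58) and Dmkn (2.11 ± 0.92) were the other 3 called. HFD male 2 held most of these differences: without it they were 1.53 for Krt10, 0.43 for Sbsn, 0.31 for Fat2 and 0.18 for Dmkn. Tgm3 differed by 0.31 ± 0.12 and Sfn by -0.59 ± 0.29, neither called. The count was 1 without HFD male 2, 2 without CD male 4 or 6, 8 without HFD male 5 and 7 without HFD male 6.

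HFD females against HFD males had 35 members tested, since 6 of the 12 libraries carried them, and 8 were called higher and 0 lower, against 2.01% and 1.08% of 15179 genes. The median log2 fold change of the 35 was 2.19, and 3.99 without HFD male 2. No member passed the adjusted p by edgeR (0.0988% of genes did) or by DESeq2 (0.179% of genes), and 8 were under an unadjusted edgeR p of 0.05. Krt17 differed by 2.69 ± 0.85, Gjb2, a gap junction connexin, by 1.73 ± 0.60 and Sfn by 1.14 ± 0.38, each with an adjusted p of 0.872. Krt17 stood at 1.60 without HFD female 3 and Gjb2 at 1.11 without HFD female 4. Krt14 (4.15 ± 1.70), Ly6d (2.37 ± 0.92), Krt78 (2.20 ± 0.97, and 3.36 without HFD male 2), Ppl (1.56 ± 0.64) and Pkp1 (0.88 ± 0.40) were the other 5. Krt5 differed by 3.41 ± 1.65, Krt13 by 3.37 ± 1.85 and Krt1 by 2.93 ± 1.95, with the groups overlapping and none called, and Krt5 and Krt1 stood at 5.30 and 8.35 without HFD male 2. Serpinb5 differed by -0.06 ± 0.16. The count moved as single libraries were left out and the filter was applied anew. It was 30 without HFD male 2, 19 without HFD female 2 and 17 without HFD female 6. It was 5 without HFD male 3, 5 or 6, and 4 without HFD female 1, 3 or 4 or HFD male 1.

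CD females against CD males had 15 members tested, 2 called higher and 0 lower, against 2.94% and 6.21% of 14922 genes. Tgm3 was higher in females by 0.57 ± 0.08 (edgeR adjusted p = 0.00155), and it was the 1 member past the adjusted p, against 2.92% of genes. It stood at 353 to 443 TPM in CD females (median 401) and at 243 to 330 TPM in CD males (median 294), with no overlap. On HFD the Tgm3 level was 391 ± 102 TPM in females and 375 ± 85.4 TPM in males (SD, n = 6), the groups overlapped, and the difference was 0.14 ± 0.18. Ly6d was higher in CD females by 1.49 ± 0.45 (adjusted p = 0.0907), with 16 to 47 counts in females and 1 to 26 in males. Krt10, Perp, Dmkn and Pkp1 were not called. The count was 5 without CD female 1, and 2 members passed the adjusted p without CD male 1.

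HFD+E2 males against HFD males had 16 members tested, 0 called higher and 6 lower, against 2.63% and 3.24% of 15010 genes. The median log2 fold change of the 16 was -0.44, and 0.08 without HFD male 2. No member passed the adjusted p by edgeR (0.00666% of genes did), with 7 under an unadjusted p of 0.05, and DESeq2 called 2, Sprr3 and Krt4 (0.139% of genes). Sprr3 had 0 counts in all 6 HFD+E2 males and in 4 HFD males, and Krt4 had 0 counts in 5 HFD+E2 males. Krt10 differed by -4.72 ± 1.52 (edgeR adjusted p = 0.455): it gave 5 to 15 counts in the 6 HFD+E2 males, against 7 to 19 in 4 HFD males and 1181 and 79 in HFD males 2 and 4. Perp (-0.43 ± 0.16), Dmkn (-2.45 ± 0.92), Krt14 (-2.92 ± 1.21), Fat2 (-1.46 ± 0.59) and Serpinb5 (-0.45 ± 0.20) were the other 5 called. Without HFD male 2 the differences were -1.57 for Krt10, -0.26 for Perp, -0.51 for Dmkn, -1.012 for Krt14 and -0.38 for Fat2. Tgm3 (0.34 ± 0.14), Sfn and Evpl were not called. The count was 2 without HFD male 2, 1 of them higher, and 3 without HFD+E2 male 4 or 6. The same HFD males served as control here and as the diet group above.

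**Figure D4:**
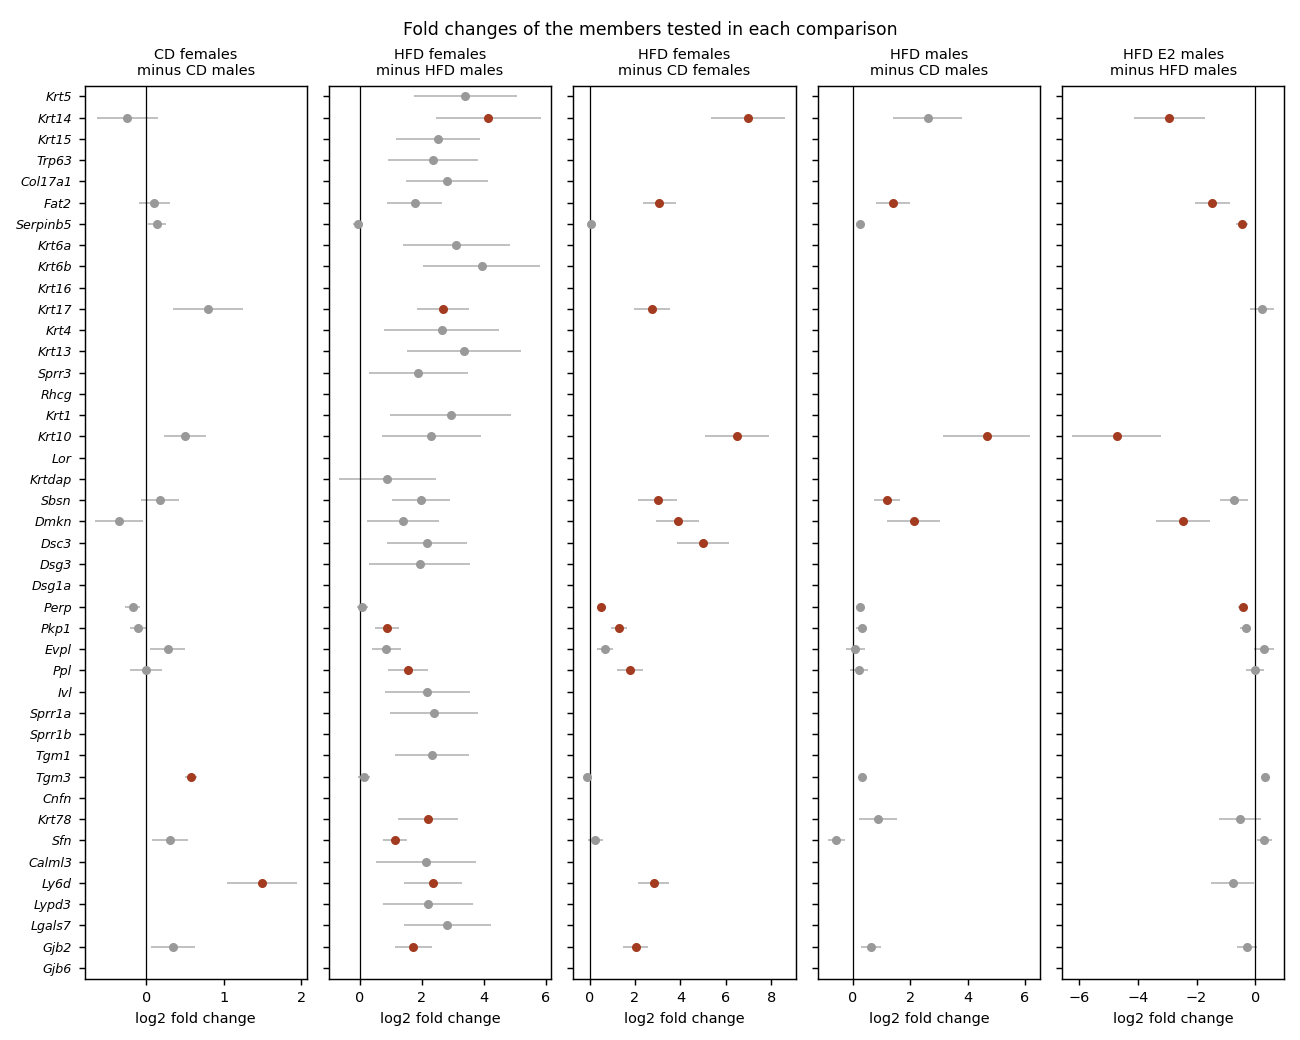
Log2 fold change with its standard error for each member tested, in each of the 5 group comparisons, 6 libraries a group. Red marks members called at an unadjusted p under 0.05 and an absolute change above 0.4, grey the others; the 12 red members of HFD against CD females lie to the right of 0 and the 6 of HFD+E2 against HFD males to the left.

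The difference of the diet effect between the sexes was tested over the 24 vehicle libraries. Of 35 members tested, 3 were called higher and 1 lower at an unadjusted p under 0.05, against 3.71% and 1.47% of 15800 genes. No member and 0% of genes passed the adjusted p by edgeR, with 4 members under an unadjusted p of 0.05, and DESeq2 called 1, Dsg3 (0.0236% of genes). The 3 with a larger diet difference in females were Pkp1 (0.99 ± 0.42), Ppl (1.57 ± 0.68) and Krt78 (2.75 ± 1.11), and the 1 with a smaller was Tgm3 (-0.44 ± 0.20, adjusted p = 0.727).

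For 6 keratins the groups were also compared without a model of the spread, by exact two-sided permutation of log2 CPM over every split of 6 against 6, whose smallest p is 0.00216. Of 30 differences of means, 9 had an exact p under 0.05 and 0 passed adjustment over the 30 (lowest adjusted exact p = 0.146), while 4 passed without HFD female 6. They included Krt1 in HFD against CD females (6.54, exact p = 0.0173), Krt13 in the same comparison (6.37, exact p = 0.0238) and Krt4 in HFD+E2 against HFD males (-3.55, exact p = 0.0108). The spread between animals was tested as a measure of its own. In females, the mean absolute deviation from the group median was 3.13 on HFD against 0.55 on CD for Krt14, 4.04 against 0.27 for Krt1, 2.85 against 0.22 for Krt10 (adjusted exact permutation p = 0.0130 each) and 3.501 against 0.295 for Krt5 (adjusted exact permutation p = 0.0390). HFD females thus differed among themselves more than CD females did in these 4 genes. For Krt5 and Krt1 the CD females had only 0 to 2 counts, so their spread was held down by the floor of log2 CPM. Krt13 and Krt4 did not pass (unadjusted exact permutation p = 0.139 and 0.143), and no gene passed in HFD against CD males or in HFD+E2 against HFD males (lowest adjusted exact permutation p = 0.195). Without any single CD or HFD female, 0 of these 4 calls passed the adjustment. Leaving out an animal also lowers the number of splits and sets the deviation of the middle animal of its group to 0. This loss therefore does not show that the calls rest on each animal.

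Among the related lists, the hemidesmosome genes and the desmosome genes of simple epithelia were tested in full in all comparisons, and 0 of 8 and 0 of 6 were called in each. In HFD against CD females, 2 of 16 late cornification genes, 1 of 5 barrier lipid genes and 8 of 12 transcription factors passed the filter on low counts. Of these, Casp14 and Scel, Elovl4, and the 3 factors Grhl1, Grhl3 and Zfp750 were called higher, against 2.95% of all genes. In HFD against CD males Elovl4, the 1 barrier lipid gene tested, was called higher (1.25% of genes). In CD females against CD males 2 of 8 factors tested, Ovol1 and Grhl1, were higher (2.94% of genes) and Casp14, 1 of 2 cornification genes tested, was lower (6.21%). In the test of the diet effect between sexes 1 of 8 cornification genes tested, Cdsn, was called higher (3.71% of genes). None of these passed the adjusted p by edgeR. Of the marker lists, skeletal muscle had 3 of 4 genes tested called higher in HFD against CD females (2.95% of genes). It had 3 of 5 lower in HFD+E2 against HFD males (3.24%) and 0 of 6 called in HFD against CD males. The sebaceous gene Far2 was called higher in HFD against CD females (1 of 2 tested, 2.95%) and males (1 of 1, 1.25%). It was called lower in HFD+E2 against HFD males (1 of 1, 3.24%). Some columnar colon, adipocyte, urothelium and neutrophil genes were also called in single comparisons and are not listed here. In CD females against CD males, 8 of 8 smooth muscle genes were lower, 4 of them past the adjusted p. There 3 of 5 skeletal muscle genes were lower and 4 of 7 B cell genes higher. The part of tissue makeup in the Tgm3 difference was not tested.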

How the data were processed

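RNA of distal colon from 30 mice was sequenced as paired 51-base reads with a stranded kit. The authors trimmed reads with Trim Galore and aligned them with STAR to GRCm38, and deposited raw counts per gene from featureCounts, 1 table for all libraries. The deposited TPM values, 1 file a library, came from StringTie. Versions and the strand setting are not given in the sources used here, apart from bcl2fastq 2.19.1.403. Gene IDs listed more than once in a TPM file (21) were summed, and every count column was matched to a library by its name. All 75 library pairs within groups differed by more than sampling noise. Replicates are animals, and cages are not given in the sources used here.

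Counts were tested in R 4.3.3 with edgeR 4.0.16 (filterByExpr, TMM, robust quasi-likelihood F-test), each comparison on its 12 libraries and the interaction on 24. The study's thresholds (p under 0.05, absolute log2 fold change above 0.4) were applied to unadjusted p, since the sources do not say whether p was adjusted. Alternatives were DESeq2 1.42.0, no filter on low counts, all 30 libraries in 1 fit, a non-robust fit, a replicate block, limma 3.58.1 on log2(TPM + 0.1) and log2(TPM + 1), and leaving out each library. Log2 CPM used a prior count of 2. The code was tested on simulated data. The correlation planned over 30 libraries was replaced by one within the 6 Krt5 libraries, because the libraries form separate clusters. The 42 members and all lists were chosen with earlier results of these data known. Values per library are given for the leading genes of each role, and in each comparison for members past the adjusted p or, with fewer than 3 in a direction, the 3 with the lowest p in that direction. The genes likest Krt5 are the 10 with the highest Spearman rho. Promoter sequences are from RefSeq (GRCm38.p6), and 51-base stretches shared between genes were counted on the reference transcripts. Depth limits low values: 3 counts were 0.17 to 0.35 CPM.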

Additional observations from a re-analysis of the deposited data

Results flagged for a closer look

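In a group of 6 animals, a library was picked out where its gap to the nearest other, divided by the range of the group on log2 CPM, was over Dixon's critical value. Of 78 gene and group pairs tested, 14 met this. The critical value picks about 1 in 20 groups by chance for normal values only. In a group otherwise at 0 counts, a single read in 1 library gives a ratio of 1. The 14 are therefore not read against that rate. Most rest on few counts. In CD females these were Krt15 in library 4 (0.741, 0 counts against 4 to 7), Sprr3, Krtdap and Krt6a in library 1 (0.703, 1 and 1, with 5, 2 and 5 counts) and Ivl in library 2 (1, 1 count). In CD males they were Trp63 in library 3 (0.718, 6 counts against 0 to 1) and Ivl in library 6 (1, 1 count). In HFD+E2 males they were Krt4 and Krt6b in library 4 (1 each, 8 and 1 counts) and Krt1 in library 5 (1, 2 counts). The larger values were Krt16 in HFD female 4 (0.661, 5099 counts against 2 to 41) and, in HFD male 2, Lor (0.841, 22 counts against 0 to 1), Krt16 (0.636, 31 counts against 0 to 4) and Krt17 (0.704, 41 counts against 8 to 13).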

How the results depend on the processing

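The counts of members called at the unadjusted p moved between settings. For CD females against CD males the count of 2 became 4 with DESeq2, 7 with no filter on low counts and 1 with all 30 libraries in 1 fit, and 3 members passed the adjusted p with DESeq2 in place of 1. For HFD females against HFD males 8 became 27 with all 30 libraries and 19 with a non-robust fit. For HFD against CD females 12 became 35, 38 and 32 with DESeq2, no filter and all 30 libraries, and by adjusted p 0 became 28 with DESeq2 and 25 with all 30. For HFD against CD males 4 became 15, 16 and 23 in the same order and 1, in the lower direction, with limma on log2(TPM + 0.1) or log2(TPM + 1), and 1 member passed the adjusted p with DESeq2. For HFD+E2 against HFD males 6 became 16, 24 and 25, and 3 and 2 with limma at the lower and the higher pseudocount, with 2 past the adjusted p in DESeq2. In the interaction 4 became 12 with DESeq2 (10 higher and 2 lower), 7 with a non-robust fit and 2 with the replicate block, and DESeq2 passed 1 by adjusted p in place of 0. DESeq2, no filter and all 30 libraries test more members by construction. The filter was also applied anew where a library was left out, so the members tested could differ there too. Without the 6 Krt5 libraries, an alternative chosen after seeing the data that leaves 2 HFD females and 4 HFD males, the counts were 1, 1, 2 and 2 for HFD females against HFD males, HFD against CD females, HFD against CD males and HFD+E2 against HFD males. These libraries were chosen by the level of a member, so lower counts and changed signs follow from the choice and are no test of the results. The log2 fold changes that then changed sign were, in HFD against CD females, Krt10 (-0.16), Tgm3 (0.14), Ppl (-0.43), Krt14 (-0.37), Sbsn (-0.61) and Dmkn (-0.059), in HFD females against HFD males Pkp1 (-0.072) and Ppl (-0.15), in HFD against CD males Dmkn (-0.14), in HFD+E2 against HFD males Krt14 (0.85) and in the interaction Ppl (-0.14). Leaving out single libraries, the counts at the unadjusted p ranged from 2 to 5 in CD females against CD males (1 to 2 by adjusted p), 4 to 30 in HFD females against HFD males, 12 to 20 in HFD against CD females, 1 to 8 in HFD against CD males and 2 to 7 in HFD+E2 against HFD males, with 0 past the adjusted p in these 4 comparisons. Serpinb5 in HFD females against HFD males ranged from -0.13 to 0.070 and changed sign without HFD female 6 (0.03) or HFD male 2 (0.070). Of the 30 exact tests of means, 0 to 4 passed the adjusted p and 6 to 13 the unadjusted p when single libraries were left out, and 5 the unadjusted p on log2(TPM + 0.1). Of the tests of spread, 0 to 4 passed the adjusted and 1 to 8 the unadjusted p. The cause of these shifts was not tested. The sources used here do not say whether the replicate numbers pair animals. Same-numbered libraries of different groups correlated above 0.1 in 2 to 5 of 6 pairs. In no comparison did every library correlate best with its own number, though 0 to 3 of 6 did. With the number as a replicate block, the count of members became 1 for HFD females against HFD males, 2 for HFD+E2 against HFD males, 3 for CD females against CD males, 11 for HFD against CD females and 3 for HFD against CD males. Among all genes, those past the adjusted p went from 435 to 941 in CD females against CD males and from 3 to 12 in HFD against CD females. They went from 0 to 2 in HFD against CD males, from 1 to 7 in HFD+E2 against HFD males, and from 15 to 10 in HFD females against HFD males. Low counts limit most members outside the 6 Krt5 libraries, where values rest on a few reads.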

Other observations

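Genes of other cells were read in the same libraries. S100a9, a calcium-binding protein of neutrophils that stratified keratinocytes also make, stood at 26.6, 15.2, 1.21, 4.25, 34.9 and 5.81 TPM in HFD females 1, 3, 4 and 5 and HFD males 2 and 4, and at most at 0.480 TPM in the other 24 libraries. Its partner S100a8 reached 16.9 TPM in the 6 and 0.201 TPM in the rest, with 0 TPM in HFD female 5 and HFD male 4. By counts scaled to library size, however, these 6 were its 6 highest libraries, so reads were present in both. The neutrophil gene Ly6g overlapped, at 37.3 to 164 TPM in the 6 and 37.8 to 186 TPM in the rest. The sum of the 7 neutrophil and inflammation genes overlapped too, at 63.6 to 218 TPM and 38.5 to 186 TPM, and Ly6g made up most of it. In HFD females 1 and 3 and HFD male 2, Cxcr2 stood at 0.484, 0.575 and 0.420 TPM, against at most 0.0425 TPM in the 24. Csf3r stood there at 0.818, 0.845 and 0.755 TPM against 0.525, and Il1b at 4.09, 2.83 and 4.38 TPM against 1.33. In HFD females 4 and 5 and HFD male 4, Csf3r and Il1b lay inside the range of the 24, and Cxcr2 was at most 0.128 TPM. Retnlg was at 0 TPM in the 6 but for HFD male 2 (0.472 TPM). CD male 5, with 6 Krt5 counts, had a skeletal muscle sum of 140 TPM, above HFD females 4 and 5 and HFD male 4.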
